A study of Mus musculus with 3 samples.

Results

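Among the memory P14 cells of this series, a small set carried RNA of genes that mark circulating effector CD8 T cells. Of 7003 memory cells that passed the filters (at least 500 genes detected and at most 10% of counts from mitochondrial genes), 276 met the rule for effector-like cells, which is 3.94% (3.50 to 4.42, Clopper-Pearson 95% interval). The rule asked for at least 1 UMI (a counted RNA molecule) in 2 or more of Cx3cr1, Zeb2, Klrg1, S1pr5 and Gzma. It also asked for fewer than 4 of 6 genes of tissue-resident memory cells (Ckb, P2rx7, Atp8a2, Itga1, Actn2, Cish). The other 6727 filtered memory cells served as the comparison, and all 3 libraries together held 18920 filtered cells. The members were chosen from the same counts that are described below, so no comparison with the other memory cells is a test.

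P14 cells are CD8 T cells of mice whose T cell receptor transgene recognises GP33, a peptide of lymphocytic choriomeningitis virus (LCMV), on H-2Db. The memory library held P14 cells collected at day 200 of an acute LCMV infection and gated as CD8 T cells positive for CD45.1, CD44 and CD127 (the IL-7 receptor), negative for KLRG1, and by other markers. Klrg1 and Il7r were therefore set in part by the gate. A pair of further libraries came from C57BL/6 mice with B16.Gp melanoma, a B16.F10 line that expresses the LCMV glycoprotein: naive P14 cells of TCF-1-GFP reporter mice were transferred 8 days after the tumour, and P14 cells were sorted by CD45.1 and CD44 on day 16 after transfer from blood (PBMC) or from the lymph node that drains the tumour (TdLN). All samples are labelled wild type C57BL/6. How many mice went into each library, and from which tissue the memory cells came, is not given, and a tumour library named in the design was not analysed here. Each group had 1 library, so tissue, day, infection, sort and preparation cannot be told apart, and no value below has a replicate.

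After an acute infection most effector CD8 T cells die, and the survivors include central memory cells, which carry Ccr7 and home to lymph nodes, and effector memory cells, which patrol blood and tissue. A long-lived effector-like kind of memory cell is known in mice that keeps the fractalkine receptor CX3CR1 and the inhibitory lectin KLRG1, uses the egress receptor S1PR5, and depends on the transcription factors T-bet and ZEB2. Such cells hold granzymes ready for killing. They usually have little of the IL-7 receptor and lie outside a gate for KLRG1-negative, CD127-positive cells.

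The members were T cells by their RNA. All 8 genes of the CD8 T cell list (CD3 chains, CD8 chains and receptor constant regions) were measured, and none differed by 1.5-fold from the other cells; Cd8b1 stood at 1185 CPM (a gene's counts scaled to the total counts of its group) in members and 1061 in the others. A T cell gate on CD3 UMIs and 12 genes of other blood cells kept 275 of the 276. The remaining member had 12 UMIs of Ncr1, 28 of Tyrobp, 16 of Fcer1g and 8 of Klra8, which mark natural killer (NK) cells, and no Cd3e UMI; none of the other memory cells had this profile. This cell held 86 of the 522 Gzma UMIs of all members, so values that rest on it are given with and without it. The 8 NK markers summed to 276 CPM in members and 192 in the others, most of it Il2rb at 199 and 186 CPM, which T cells also carry, and Klra4 was at 0 in members. Of 11 macrophage, monocyte and dendritic cell markers 7 were at 0, among them Csf1r, Lyz2 and C1qa. The list summed to 1751 CPM in members and 1561 in the others, most of it Ly6c2 at 1620 and 1454 CPM; Cst3 was at 106 and 86.3 CPM, Itgax at 21.5 and 15.6, and none reached 1.5-fold among those measured. All 5 neutrophil and all 5 melanoma markers were at 0, as were Cd4, Foxp3, Cd79a and Ms4a1. Other markers of CD4 T cells and B cells were not: Cd5 was at 46.5 CPM in members and 40.8 in the others. Icos was at 18.0 and 19.1 CPM, Cd40lg at 3.91 and 3.29 and Cd79b at 1.96 and 5.12. The gamma-delta T cell list summed to 369 and 450 CPM, most of it Trdc at 350 and 443. Tcrg-C1, Tcrg-C2, Tcrg-C4 and Trdv4 were higher in members, the most abundant being Tcrg-C2 at 11.3 and 3.30 CPM. In the other cells, 5 cells rich in immunoglobulin RNA held 75.9% of the Ighm counts. The members had a median of 8433.5 UMIs and 2152 genes per cell and the others 9992 UMIs and 2221 genes, with mitochondrial shares of 4.71% and 4.85%. The summed counts were 2557495 and 67558871. Of the memory barcodes, 15 also occurred in the PBMC library and 11 in the TdLN library; 1 member had a barcode shared with PBMC and none with TdLN. Doublets were not removed.

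The rule genes chose the members, so their values are a description only. Zeb2, a DNA-binding repressor that promotes terminal effector differentiation, was detected in 223 of the 276 members, S1pr5 in 168, Klrg1 in 160, Cx3cr1 in 110 and Gzma, the tryptase granzyme A, in 48. The most frequent combinations were Zeb2 with S1pr5 in 56 members and Zeb2 with Klrg1 in 46, each without the rest. All 5 genes were found together in 9 members. Zeb2 was at 201 CPM (184 to 220, exact Poisson 95% interval, counting error only, as for all intervals here) in members and 7.24 in the others. S1pr5 was at 91.5 and 6.25 CPM, Klrg1 at 91.1 and 2.25, and Cx3cr1 at 86.4 and 0.518. Gzma was at 204 CPM in members and 0.281 in the others, and 10 cells held 67.8% of its counts in the members; without the cell with NK markers its level was 171 CPM. The CPM of a gene mixes how many cells carry it with how much each carries. At 4200 UMIs per cell, to which each cell was thinned and which left out 276 shallower cells of the library, 26.7% (21.3 to 32.5) of the members had Cx3cr1 and 0.263% (0.153 to 0.420) of the others.

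**Figure D1:**
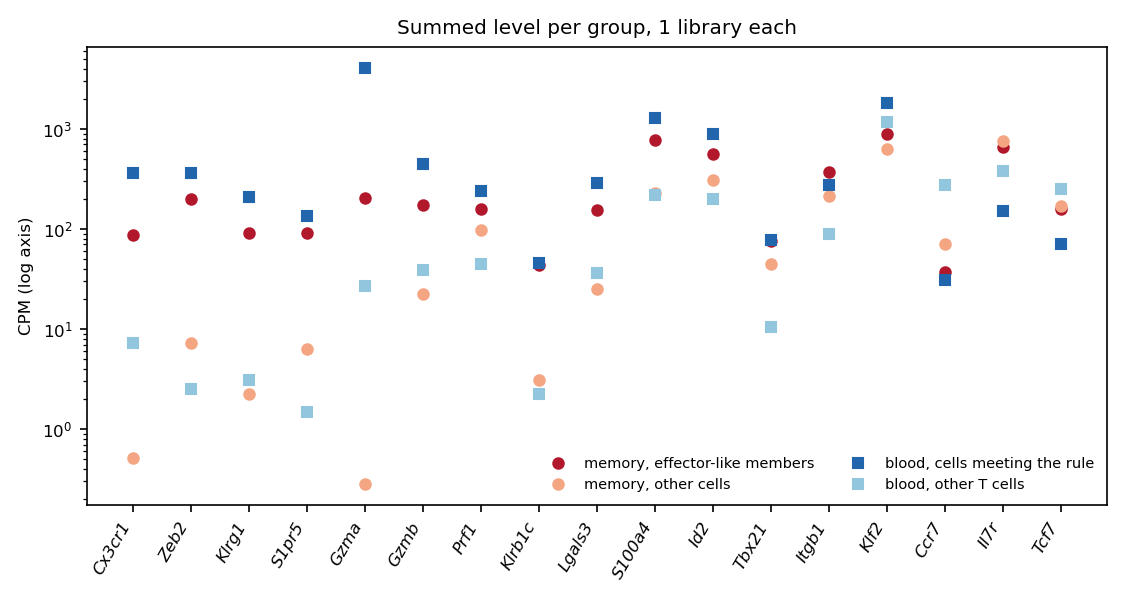
Summed level of 17 genes in CPM (log axis) in effector-like members and other cells of the memory library (circles) and in cells meeting the same rule and other T cells of the blood library (squares), 1 library each and no error bars. The 5 rule genes on the left are high in both selected groups by construction; Gzmb, Lgals3 and S100a4 are also higher in both, whereas Tcf7 differs little in memory and more in blood.

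The part of the rule that leaves out resident-like cells removed no cell. No cell with 2 or more effector genes had 4 or more resident genes, while 24 cells of the library had 4 or more resident genes, all with at most 1 effector gene. Even so, at least 1 of the 6 resident genes was seen in 133 of the members. Itga1, the alpha 1 integrin that binds collagen, was at 56.3 CPM in members, 33.1 in the others and 236.5 in the 24 resident-like cells. Cish, a suppressor of cytokine signals, was at 23.9, 8.67 and 150.5 CPM. Both were thus higher in the members than in the other cells although the rule counted them against membership. Ckb, P2rx7, Atp8a2 and Actn2 were at 7.04 CPM or below in members.

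The threshold of 2 rule genes lay on a slope. Cells just inside, with exactly 2 rule genes (168 cells, median 9607 UMIs), had Gzmb, the granzyme that triggers apoptosis, at 131 CPM, and cells just outside, with exactly 1 (925 cells, median 10393 UMIs), at 46.2 CPM. For S100a4, a calcium-binding protein of migrating cells, the values were 585 CPM inside and 267 outside, and for Ccr7, the lymph node homing receptor, 44.3 and 69.1. Members with 3 rule genes (68 cells) had Gzmb at 229 CPM and those with 4 or 5 (40 cells) at 299. The number of rule genes detected also follows depth, and the median UMI count went the other way, to 6739.5 in members with 3 and 5594.5 in members with 4 or 5.

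With every cell at 4200 UMIs the order was the same, with larger differences. Gzmb was at 21.7 CPM in 6099 cells with none of the 5 genes, at 89.0 in 500 cells with 1, at 298 (242 to 362) in 80 cells with 2 and at 412 (328 to 510) in 48 cells with 3 or more. Lgals3, which encodes galectin-3, was at 25.7, 56.7, 205 and 412 CPM. S100a4 was at 237, 354, 1143 and 1562 CPM. Each of these steps up to 2 rule genes was larger than the counting intervals; for Gzmb the intervals of the last pair of groups overlapped. Ccr7 was at 70.2, 64.3, 23.8 (10.3 to 46.9) and 4.96 (0.126 to 27.6) CPM, the last from 1 UMI. Il7r was at 769, 717, 637 and 565 CPM. Tcf7, the gene of the memory factor TCF-1, was at 174, 168, 152 and 159 CPM with overlapping intervals.

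**Figure D2:**
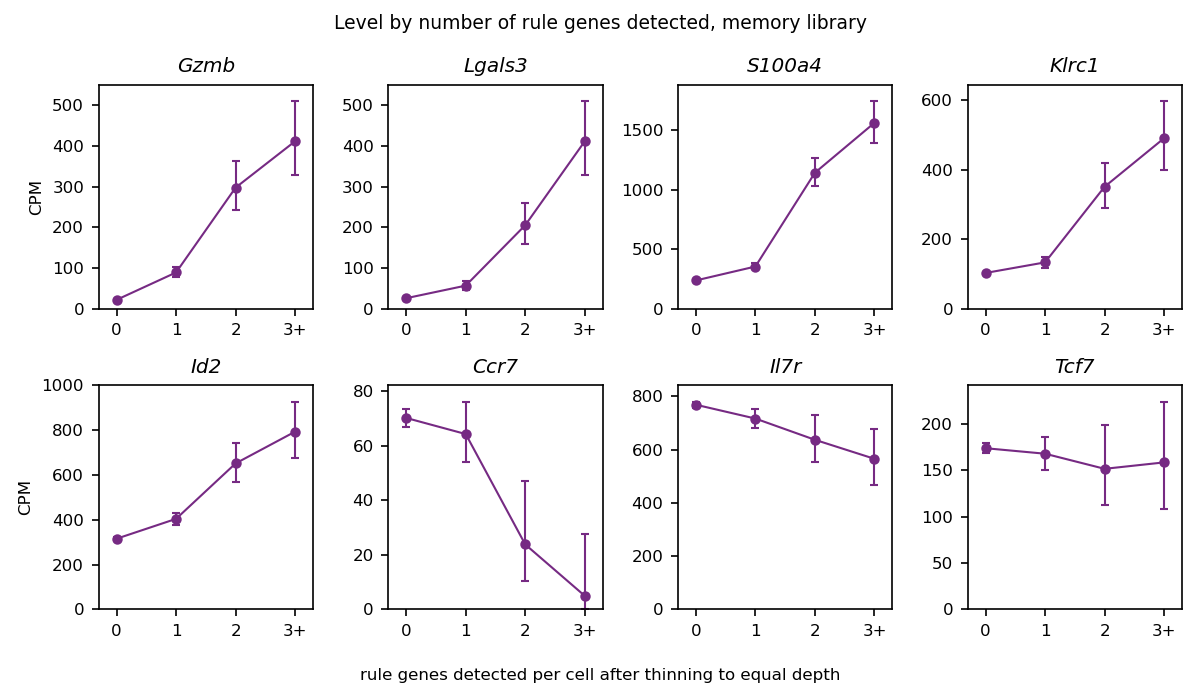
Level (CPM, linear axes from 0) of 8 genes in memory cells grouped by how many of the 5 rule genes were detected after thinning to 4200 UMIs (6099, 500, 80 and 48 cells), with exact Poisson 95% intervals as bars. Gzmb, Lgals3, S100a4, Klrc1 and Id2 are higher with more rule genes, Ccr7 and Il7r are lower, and Tcf7 stays between 152 and 174 CPM.

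Across all genes, more were higher than lower in the members on the CPM scale. A gene was measured if it reached 20 CPM in the higher group, and a ratio of at least 1.5-fold was counted. The 11 rule genes were left out. Of 4536 genes, 194 were higher in members (4.28%) and 26 were lower (0.573%). The median of all measured genes was 0.18 (log2), so a ratio near that value is no difference from the bulk of genes. Cytosolic ribosomal protein genes moved with this shift, summing to 345813 CPM in members and 401579 in the others. The balance of the counts depended on the scale. With ribosomal, mitochondrial and Gm42418 counts left out of the totals, 163 genes were higher and 122 lower, and with median ratio scaling, which sets the median gene to about 0, 56 were higher and 49 lower. Both scales move the ratios of the genes they keep down together, so a lower call could not be lost by the shift. That all 26 lower genes were also lower under both is therefore no support for them. Of the 194 higher genes, 84 and 56 were also higher.

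Outside the rule, the largest ratio among genes at 50 CPM or more was that of Gzmb. It was at 173 CPM (157 to 190) in members and 22.2 (21.1 to 23.4) in the others, 7.78-fold higher (6.98 to 8.65, conditional binomial 95% interval). Lgals3 followed with 154 and 25.4 CPM, 6.09-fold higher (5.45 to 6.80), and S100a4 with 782 and 230 CPM, 3.40-fold higher (3.24 to 3.56). Stmn1, a microtubule regulator of dividing cells, was at 60.6 and 21.0 CPM, and 10 cells held 75.5% of its counts in the members. The inflammatory chemokine Ccl4 was at 68.4 and 24.9 CPM, Anxa1 (annexin A1) at 68.8 and 29.8, and the inhibitory NK receptor gene Klrc1 (NKG2A) at 228 and 99.2. Ccr2, a receptor for inflammatory chemokines, was at 128 and 57.5 CPM, and Kcnj8, a potassium channel subunit, at 91.1 and 42.1. Lgals1, Anxa2 and Slamf7 completed the 12 highest, each between 2.06-fold and 2.08-fold higher.

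The genes that were lower are ranked by the same limits, 50 CPM or more and no receptor or immunoglobulin genes. Nsg2, best known as the gene of a neuronal endosome protein, was at 23.9 CPM in members and 57.9 in the others, 2.43-fold lower (1.89 to 3.18). Ccr7 was at 37.1 and 70.9 CPM, 1.91-fold lower (1.56 to 2.36). The interferon-induced gene Ifi27l2a was at 66.1 and 117 CPM, and Plac8 at 166 and 250. Outside these limits Ighm was at 19.2 and 115 CPM, 6.03-fold lower, with most of the counts of the other cells in the 5 immunoglobulin-rich cells, and the memory genes Xcl1, Dapl1 and Actn1, below 50 CPM, were between 2.09-fold and 2.30-fold lower. Pgs1 and Fam169b were 1.60-fold and 1.57-fold lower. Rgs10, Sidt1, Impdh2, Tnfsf8 and Fam46a had ratios between 1.38-fold and 1.48-fold lower, which did not reach the 1.5-fold threshold.

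**Figure D3:**
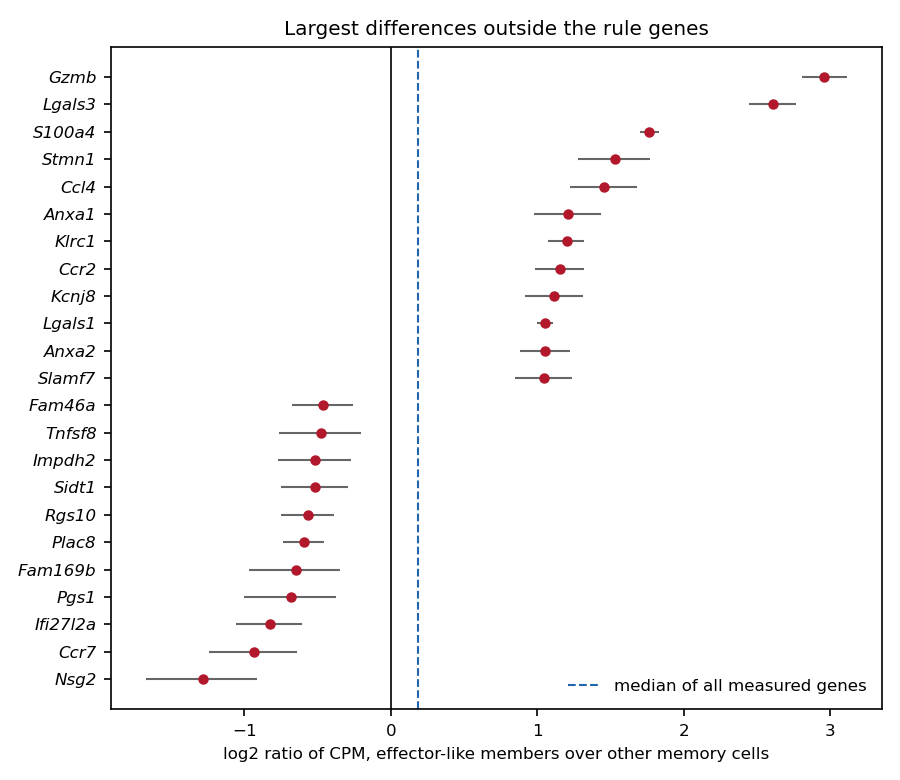
log2 ratio of CPM, effector-like members over other memory cells, for the genes with the largest ratios at 50 CPM or more outside the rule (points), with conditional binomial 95% intervals (lines) that cover counting error only. Gzmb and Lgals3 lie apart from the rest at 2.96 and 2.61, and the dashed line marks the median of all measured genes at 0.18.

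Granzymes and perforin are the content of cytotoxic granules. Of 17 measured genes of the cytotoxic list outside the rule, 3 were at least 1.5-fold higher in members and none lower. Over all genes the shares were 4.28% and 0.573%. The list median was 0.38 (log2) beside 0.18 for all genes. Besides Gzmb these were Prf1, the pore-forming perforin, at 158 and 97.5 CPM (1.62-fold, 1.46 to 1.80), and Rab27a, which docks the granules, at 30.5 and 18.6. Prf1 and Rab27a did not reach 1.5-fold with median ratio scaling, under which 56 of the 194 higher genes kept their call. Serpinb9, an inhibitor of granzyme B, was 1.49-fold higher (1.17 to 1.89) and did not pass. Nkg7, a granule membrane protein gene, was at 1582 and 1125 CPM, and Gzmk, at 46.9 and 36.0 CPM, was 1.30-fold higher, a smaller ratio than that of Gzmb. Gzmb RNA was spread over the members: 152 of 276 had a UMI, and the 10 richest cells held 22.4% of the counts. At 4200 UMIs, 42.0% (35.8 to 48.3) of the members and 6.63% (6.03 to 7.26) of the others had Gzmb. High Gzmb was not particular to the members, since the 24 resident-like cells had 618 CPM (510 to 742) and a share of 75.0% (53.3 to 90.2) at 4200 UMIs. Gzma was not seen in those 24 cells, whose median depth was 7139 UMIs.

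The genes of both granzymes lie on the minus strand, Gzma at chr13:113093825-113100981 and Gzmb at chr14:56258838-56262260 (GRCm38). Their 250 bases upstream of the start in RefSeq (GRCm38.p6) are shown because T-bet and ZEB2 are known regulators of this programme and both granzymes were high in the members. The windows are chr13:113100982-113101231 and chr14:56262335-56262584, each written 5′ to 3′ on the minus strand, with matches in capitals to an E-box bound by ZEB factors (CACCTG or CAGGTG) or to a T-box half-site (TCACAC or GTGTGA).
Gzma upstream: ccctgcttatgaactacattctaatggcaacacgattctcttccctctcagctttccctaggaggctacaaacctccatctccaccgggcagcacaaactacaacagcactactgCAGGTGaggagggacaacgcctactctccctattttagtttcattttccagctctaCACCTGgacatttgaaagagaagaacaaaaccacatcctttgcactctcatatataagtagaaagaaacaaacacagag
Gzmb upstream: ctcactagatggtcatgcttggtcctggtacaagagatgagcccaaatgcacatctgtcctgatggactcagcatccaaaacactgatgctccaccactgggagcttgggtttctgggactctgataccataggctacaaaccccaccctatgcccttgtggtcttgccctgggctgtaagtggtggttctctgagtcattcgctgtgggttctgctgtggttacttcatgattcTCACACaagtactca
The Gzma window held 2 matches to the E-box, 1 in each orientation, and the Gzmb window 1 match to the T-box half-site. Of 27025 mouse promoter windows of this length, 17.1% held the E-box and 12.2% the half-site, so such matches are common. The windows of Cx3cr1, Zeb2 and S1pr5 held neither set of letters, and Klrg1 had no entry. A match of letters is a description and was not measured as binding here.

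NK lectin-like receptors, encoded together on chromosome 6, had the highest median of the lists with more than 2 measured genes. Of 8 measured genes outside the rule, 6 were higher in members, beside 4.28% over all genes, and none lower, with a median of 1.04 (log2). Klrc1 and its partner chain gene Klrd1 (CD94), at 441 and 266 CPM, were abundant in both groups, as was Klrk1 (NKG2D), at 437 and 302 CPM and 1.45-fold. Klrc2 was at 66.9 and 36.5 CPM. Klrd1 did not reach 1.5-fold with median ratio scaling. The receptors that were rare in the other cells had the largest ratios. Klre1 was at 47.7 CPM (39.6 to 57.0) in members and 1.20 in the others, 39.8-fold higher (29.8 to 53.4). Klrb1c (NK1.1) was at 43.8 and 3.09 CPM, and Klra9, a Ly49 receptor gene, at 28.9 and 0.133. These genes were carried by a minority of members: Klrb1c was detected in 71, Klre1 in 52 and Klra9 in 24, and 10 cells held 71.6% of the Klra9 counts. Reads can be split between members of the Ly49 family, so Klra9 is uncertain. Without the cell with NK markers, Klre1 and Klrb1c were each at 40.4 CPM and Klra9 at 29.0. Tyrobp, the NK adaptor gene, went from 17.2 to 6.28 CPM without that cell, with 2.26 CPM in the others. At 4200 UMIs, 12.2% of members, 0.433% of the others and none of the 24 resident-like cells had Klre1. The interval of the resident-like cells, 0 to 14.2%, includes the share of the members.

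Among effector transcription factors, 4 of 9 measured genes outside the rule were higher in members, beside 4.28% over all genes. None was lower, and the median was 0.52 (log2). Id2, which restrains E proteins in effector cells, was at 558 CPM (530 to 588) in members and 310 in the others, 1.80-fold higher (1.71 to 1.90). Tbx21, the gene of T-bet, was at 76.2 and 44.7 CPM (1.70-fold, 1.47 to 1.97). Rora was at 63.3 and 34.9 CPM, and Bhlhe40, a factor of effector and resident cells, at 25.4 and 7.25. Eomes, the T-box factor of memory cells, was at 37.5 CPM in members and 37.7 in the others, a ratio whose interval includes 1. Id2 was not particular to the members either, with 871 CPM in the resident-like cells.

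Part of the stem and memory genes were lower in the members. Of 17 measured genes none was at least 1.5-fold higher and 5 were lower, beside 0.573% lower over all genes, with a median of -0.21 (log2). The 5 were Ccr7, Slamf6 (21.9 and 32.9 CPM), the chemokine gene Xcl1 (17.6 and 40.4), Dapl1 (20.7 and 47.0) and Actn1 (19.9 and 41.7), the last pair being genes of naive and central memory cells. The central factors were nearly level on the CPM scale. Tcf7 was at 159 CPM (144 to 175) in members and 172 in the others, and Lef1 at 78.6 and 81.3; the intervals of both ratios include 1. Bcl2, a survival gene, was at 329 and 344 CPM. The log2 ratios of Tcf7, Lef1 (-0.050) and Bcl2 (-0.065) were thus below the median of all measured genes, 0.18. Il7r, which the gate selected as protein, was at 654 and 755 CPM, 1.15-fold lower (1.10 to 1.21), and was detected in 246 of the 276 members. S1pr1, the receptor for exit from lymph nodes, was at 156 and 149 CPM. Klf2, which drives S1pr1 and other circulation genes, was at 891 and 636 CPM (1.40-fold, 1.34 to 1.46), and at 177 CPM in the resident-like cells.

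Some genes of movement and the cytoskeleton were higher. In the list of S100, annexin, galectin and cytoskeleton genes, 7 of 19 measured genes were at least 1.5-fold higher, beside 4.28% over all genes, and none lower, with a median of 0.53 (log2). Besides S100a4, Lgals3, Lgals1, Anxa1 and Anxa2 these were S100a10, the annexin A2 partner, at 1222 and 778 CPM, and Ahnak at 565 and 345. S100a10 and Ahnak did not reach 1.5-fold with median ratio scaling, under which 56 of the 194 higher genes kept their call. Among integrins and adhesion genes, 4 of 11 were higher and none lower, with a median of 0.46. Itgb1 (beta 1) was at 368 and 215 CPM and Itga4 (alpha 4) at 255 and 144, which together form VLA-4, an integrin for inflamed vessels. Itgb2, the beta chain of LFA-1, was at 228 and 147 CPM and Cd226, an adhesion receptor that activates killing, at 80.9 and 53.3. On the median ratio scale Itgb2 and Cd226 also fell below 1.5-fold. Of 13 other trafficking genes only Ccr2 was higher and only Ccr7 lower. Cxcr3, at 126 and 149 CPM, was 1.19-fold lower and not past the threshold.

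Of 9 measured chemokine and cytokine genes, 3 were higher and 1 lower, with a median of 0.53 (log2). Over all genes 4.28% were higher and 0.573% lower, also beside the lists below. Ifng was at 46.9 CPM (38.9 to 56.1) in members and 24.5 in the others, and Tnfsf14 (LIGHT) at 27.4 and 14.9. Ccl4 was 2.75-fold higher (2.34 to 3.21), whereas Xcl1, a chemokine for cross-presenting dendritic cells, was 2.30-fold lower (1.71 to 3.16). Ccl5, at 17736 and 12296 CPM, was the most abundant of them, was detected in all 276 members, and was 1.44-fold higher. The resident-like cells had Ccl4 at 253 CPM and Xcl1 at 339 CPM, so Xcl1 was below the level of the other memory cells in the members and above it in the resident-like cells. Of 13 cytokine receptor genes, 2 were higher and none lower: Il18rap, the accessory chain of the IL-18 receptor, at 98.9 and 51.2 CPM and Il10ra, 1.51-fold higher (1.16 to 1.95). With median ratio scaling Il10ra did not reach 1.5-fold. Il18r1 was at 292 and 241 CPM. Only 2 genes of the inhibitory receptor and exhaustion list were measured, of which Nrp1, at 20.7 and 2.63 CPM, was higher; Tigit, Tox2 and Cd200 were at 0 in members.

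The remaining lists are given by their counts and medians, beside 4.28% higher and 0.573% lower over all genes. The medians of the trafficking, cytokine receptor, glycolysis, MHC class I and oxidative phosphorylation lists were above 0 on the CPM scale. They were below 0 under the scales without ribosomal counts or set to the median gene, so no direction is given for these lists. The inhibitory receptor median also changed sign, but the genes of that list that reach 20 CPM differ between the scales. On the CPM scale they were Nrp1 and Cd160, and Nrp1, at 20.7 CPM in members, was near the limit. The change of sign is therefore no reversal of the Nrp1 ratio. None of 12 measured T cell receptor response and AP-1 genes was counted either way (median -0.18 on the log2 scale), nor any of 17 MHC class I presentation genes (0.15), 8 GIMAP genes (0.20) or 79 cytosolic ribosomal protein genes (-0.20). Of 14 type I interferon response genes only Ifi27l2a was counted, as lower, and of 13 glycolysis genes only the glucose transporter Slc2a3, at 30.1 and 14.8 CPM, as higher. Of 73 nuclear oxidative phosphorylation genes only Ndufs1 was counted, and of 9 BCL2 family genes only Bcl2a1d, at 31.3 and 19.0 CPM, both higher. The heat shock genes Hspa1a (34.0 and 16.8 CPM) and Hspa1b (47.7 and 30.7) were higher, 2 of 11 in their list. Ndufs1, Bcl2a1d and Hspa1b did not reach 1.5-fold with median ratio scaling. Of 10 histone genes 4 were higher and of 11 cell cycle genes 2. Dividing cells were few in both groups: 3 members (1.09%, 0.225 to 3.14) and 32 others (0.476%) had 3 or more of 10 cycling markers. Without them Stmn1 was 1.46-fold higher. Top2a, itself one of the cycling markers, was then at 1.60 CPM in members, from 4 UMIs, and 3.70 in the others. Both levels are below 20 CPM, so no direction is given for Top2a without these cells. The histone genes moved less: without these cells Hist1h1d was 2.05-fold higher (2.25-fold with them), Hist1h2ap 2.19-fold (3.63-fold) and Hist1h1e 1.48-fold (1.64-fold).

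**Figure D4:**
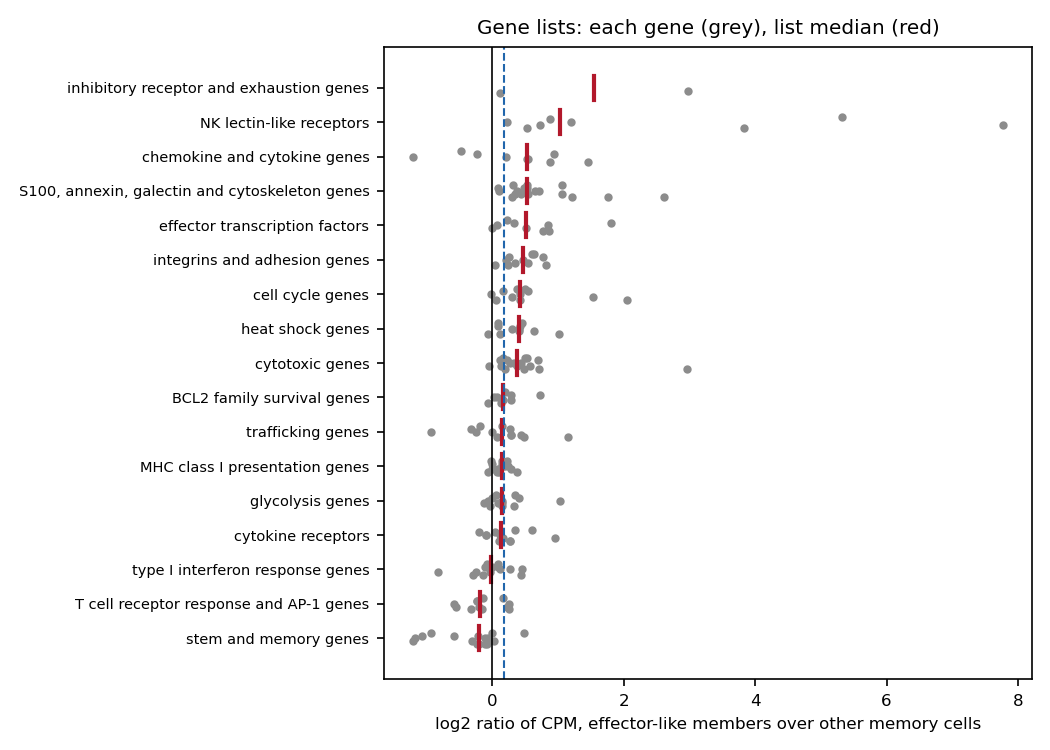
log2 ratio of CPM, effector-like members over other memory cells, for each measured gene of 17 lists outside the rule genes (grey) with the list median (red), ordered by median; the solid line is 0 and the dashed line the median of all genes, 0.18. The inhibitory receptor list has only 2 genes, the NK lectin-like receptors have a median of 1.04, and the stem and memory genes lie lowest at -0.21.

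The members were not uniform. The 110 members with Cx3cr1 (median 6383 UMIs) had S100a4 at 1140 CPM (1072 to 1210), and the 166 without it (median 9634.5 UMIs) at 577 (541 to 615). Lgals3 was at 245 and 103 CPM, and Gzmb at 233 and 138. The intervals of the pairs did not overlap. Dapl1 was at 6.44 CPM with Cx3cr1 and 28.9 without, while Il7r, at 641 and 661 CPM, and Tcf7, at 150 and 164, had overlapping intervals. Cx3cr1 is one of the rule genes, so this split is a further cut along the rule and depth differs between its sides. The 48 members with Gzma, with the lowest median depth at 5409.5 UMIs, had Gzmb at 473 CPM, Klre1 at 174 and Klf2 at 1231, with Il7r at 483 and Tcf7 at 104 (70.7 to 148).

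The receptor V segments were not used by the rule. P14 cells carry the beta segment Trbv13-3 and an alpha segment of the Trav14 family. Few UMIs reach the V segments in 3′ libraries. In the members 12 of 217 beta V UMIs (5.53%, 2.89 to 9.46) came from another segment, and in the others 235 of 5278 (4.45%, 3.91 to 5.04). Trav14 segments made up 89.1% (84.7 to 92.5) of alpha V UMIs in members and 85.3% in the others. The members thus carried the P14 segments at a share whose interval includes that of the other memory cells. Members with Cx3cr1 had 8 of 74 beta V UMIs from other segments (10.8%, 4.78 to 20.2) and members without it 4 of 143 (2.80%, 0.767 to 7.01), intervals that overlap.

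The same rule was applied to T cells of the tumour-bearing mice. It selected 2532 of 5507 blood cells (46.0%, 44.7 to 47.3) and 14 of 5984 draining node cells (0.234%, 0.128 to 0.392). With every cell at 4200 UMIs the shares were 39.9% in blood, 1.90% in memory and 0.136% in the node. The memory gate excluded KLRG1 and required CD127 while the others did not, so the order of the shares cannot be told apart from the sort.

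Most genes that set the members apart in memory had the same direction in blood. Within blood, cells that met the rule were compared with the other blood T cells by the same counts. The median depth of these groups was 5203 and 11513 UMIs, beside 8433.5 and 9992 in memory. How much depth adds to the blood ratios was not tested. Of 4284 genes measured in both libraries, 1290 were at least 1.5-fold higher in blood (30.1%) and 179 lower (4.18%). Of the 161 of these genes that were higher in memory members, 138 were also higher in blood, which is 85.7% of the memory genes and 10.7% of the blood genes. All 20 genes lower in memory members were also lower in blood, 11.2% of the blood genes, and none had the opposite call. The memory and blood comparisons share no library. The size of the ratios differed by gene. Some were larger in blood: 11.7-fold for Gzmb (451 and 38.6 CPM), 7.93-fold for Lgals3 (289 and 36.4), and 19.8-fold for Kcnj8 (129 and 6.53) beside 2.17-fold in memory. Klre1 had the larger ratio in memory, 39.8-fold (33.7-fold without the cell with NK markers) beside 14.2-fold in blood. Klra9 was 217-fold higher in memory and 142-fold in blood. Its memory ratio rests on 9 UMIs in the other cells, so no order is given for it.

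**Figure D5:**
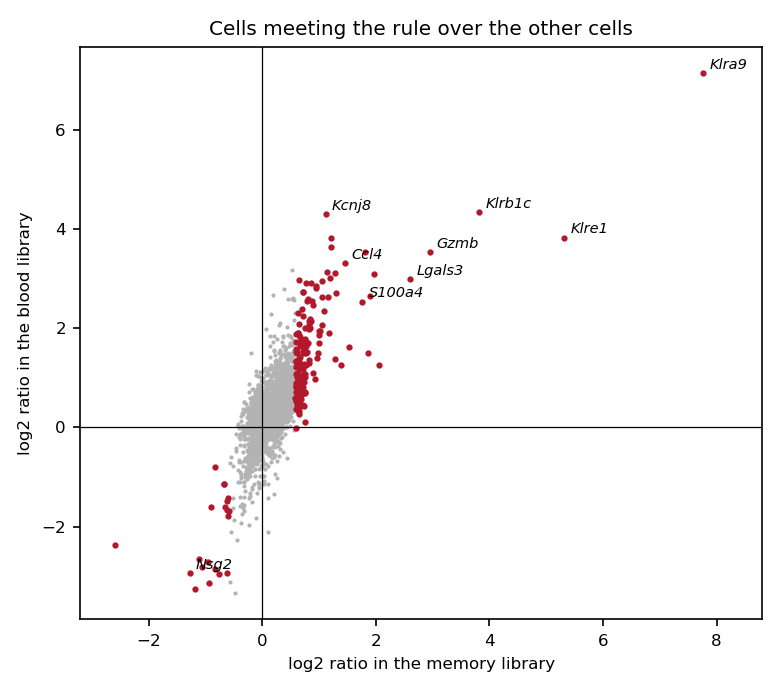
log2 ratio of CPM, cells meeting the rule over the other cells, in memory (x axis) and blood (y axis) for 4284 genes outside the rule measured in both; red points are counted at 1.5-fold in memory. Of the red points to the right 138 of 161 are also counted as higher in blood, all 20 to the left are counted as lower, and Klra9, Klre1 and Klrb1c lie far to the right.

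The lists differed between the libraries in how far they went. In blood 16 of 19 stem and memory genes were lower (median -1.29 on the log2 scale), against 5 of 17 in memory. Tcf7 was 3.57-fold lower in the blood cells that met the rule (70.9 and 253 CPM) beside 1.08-fold in memory. Il7r was at 150 and 377 CPM in blood and 654 and 755 in memory. Cytotoxic genes were higher in 13 of 17 in blood and 3 of 17 in memory, and effector transcription factors in 7 of 10 and 4 of 9. All 8 NK lectin-like receptors were higher in blood. The blood medians stand beside a median of 0.44 for all genes of that comparison, and the difference between libraries was not tested. Of the genes measured in both libraries 30.1% were higher in blood and 4.18% lower, beside 4.28% and 0.573% of all genes in memory. Blood thus had more calls over all genes, so the list counts of the libraries are not on the same footing.

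Set directly beside each other, blood cells that met the rule had 523 genes at least 1.5-fold above the memory members (10.7% of 4894) and 226 below (4.62%). Gzma was at 4082 CPM in the blood cells and 204 in the memory members, and Gzmb was 2.61-fold higher in blood (2.37 to 2.88). Tbx21 was level, at 78.1 and 76.2 CPM, as was Klrb1c at 45.5 and 43.8. The memory members had more Il7r, with 654 CPM against 150 in the blood cells, and more Tcf7, with 159 against 70.9. They also had more Anxa1, at 68.8 against 34.7 CPM, while Itgb1, at 368 against 277 CPM, did not reach 1.5-fold. Another difference lay in the receptors: 389 of 591 beta V UMIs of the blood cells that met the rule (65.8%, 61.8 to 69.6) were not from Trbv13-3, and 17.7% in the other blood T cells. The blood group therefore held mostly cells without the P14 beta segment by this measure, and its levels are not those of P14 effector cells alone.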

How the data were processed

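Droplet 3′ single-cell RNA sequencing (10x Genomics) of sorted P14 cells gave 1 library per group. The files were deposited as raw UMI counts for each gene in each called cell; Cell Ranger 3.1.0 and the mm10 build are named in the submitters' processing notes. The 8321 memory barcodes held 72283532 counts; 643 fell to the gene limit and 1244 to the mitochondrial limit, some to both. Of 31053 genes, 30934 IDs were found in GENCODE M21 (GRCm38), which gave coordinates.

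Counts were summed over members and over the other cells and divided by each total. Intervals (95%, scipy 1.17.1) cover counting error only. With 1 library per group no p-value is given. A count of 0 in the summed members allows up to 1.17 CPM (3 counts). Named genes are the rule genes, Gzmb, the 12 highest and 12 lowest ratios at 50 CPM or more, and up to 4 genes of each list, where ribosomal, predicted and receptor genes were left out of the ranking; Nkg7, Gzmk, Klrk1, Klrd1, Klrc2, Eomes, Ccl5, Cxcr3, S100a10 and Ahnak were added after their values were seen, as were the genes of the closing section, and some genes are not reported here. No doublet caller was run; 1 alternative leaves out the deepest 5% of cells. Members, lists and comparisons were chosen with earlier results of these data known. The calculation was tested on simulated data.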

Additional observations from a re-analysis of the deposited data

How the results depend on the processing

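No paired analysis was possible because each group has 1 library, and for the same reason no replicate could be left out. The size of the set and the counts of genes followed the rule and the depth; the main values were 276 members, 194 genes higher, 26 lower, and 158 with the same call in blood. With at least 3 of 5 rule genes they were 108, 976, 87 and 540, and against cells with none of the genes 108, 1015, 91 and 568. The rule without Zeb2 gave 152, 487, 50 and 322, the rule without S1pr5 516 higher, 53 lower and 356 shared, and the rule without Klrg1 331 higher. Thinning to 4200 UMIs gave 128, 1406, 174 and 692, and a share of other beta segments of 2.33% in place of 5.53%; with at least 3 rule genes it gave 48, 1970, 395 and 751. The thinned sets hold other, fewer cells and fewer counts, and how much each adds to the counts of genes was not tested. Members with exactly 2 rule genes numbered 168, with 84 shared genes. Without the deepest 5% of cells 297 genes were higher and 240 shared. A comparator weighted to the members' depth left 96 shared. Equal weight per cell gave 435 higher, 45 lower and 322 shared. A minimum of 50 CPM gave 52, 10 and 56, and a 2-fold threshold 33, 9 and 35, both stricter by construction. Totals without ribosomal, mitochondrial and Gm42418 counts gave 122 lower, and median ratio scaling 56 higher, 49 lower and 85 shared.

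Some list medians changed sign (log2). On totals without ribosomal, mitochondrial and Gm42418 counts they were -0.00099 for trafficking genes, -0.015 for cytokine receptors, -0.039 for inhibitory receptors, -0.012 for glycolysis, -0.0079 for MHC class I and -0.017 for oxidative phosphorylation. With median ratio scaling they were -0.030, -0.044, -0.068, -0.041, -0.037 and -0.045 in that order, and -0.023 for the BCL2 family. The inhibitory receptor genes that reach 20 CPM differ between the scales, so the medians of that list are not of the same genes. The trafficking median was -0.045 in members with exactly 2 rule genes. The T cell receptor response median was 0.057 after thinning and 0.19 with at least 3 rule genes as well. The Top2a ratio was -1.21 without cycling cells, which rests on 4 UMIs in members, so its sign is uncertain. The cause of these moves was not tested beyond what each setting removes. Of 2225 gene ratios under the alternatives 1 reversed, 503 moved further than their counting interval and 1721 moved by less. The 1721 include 93 each for the 2-fold and 50 CPM settings, which change thresholds only and cannot move a ratio. With thinning 65 moved further and 27 did not, and with at least 3 of 5 rule genes 57 and 36. The settings without the NK-marker cell, cycling cells or immunoglobulin-rich cells, with exactly 2 rule genes, with thinning and 3 rule genes, and against cells with none were chosen after seeing the data.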

Other observations

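A few genes outside the lists and the naming rule also had large ratios; they were chosen after their values were seen. Fcgr2b, the inhibitory Fc receptor, was at 45.0 CPM (37.1 to 54.0) in effector-like members and 19.5 in the other memory cells, and at 29.8 and 2.11 CPM in the blood cells that met the rule and the other blood T cells. As3mt, an arsenic methyltransferase gene, was at 31.7 and 8.05 CPM in memory and 77.3 and 8.97 in blood. Borcs7, which encodes a subunit of the lysosome-positioning BORC complex, was at 34.8 and 9.37 CPM in memory and 85.7 and 13.6 in blood. As3mt and Borcs7 are neighbours in the mouse genome, so reads of one could be counted for the other, which was not tested. Stard10, a lipid transfer protein gene, was at 40.3 and 16.6 CPM in memory, and Osbpl3, an oxysterol-binding protein gene, at 26.6 and 12.1. Dtx1, a regulator of Notch signals, was at 93.5 and 49.0 CPM in memory and 90.6 and 45.9 in blood, nearly the same ratio in both libraries.

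The draining node held too few cells that met the rule to describe them beyond their number: 14 cells with 180849 counts, of which 3 had 3 or more cycling markers (21.4%, 4.66 to 50.8) beside 6.58% of the other node T cells.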
